A study of Homo sapiens with 4 samples.

Results

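RNA polymerase I (Pol I) and RNA polymerase III (Pol III), with the factors that bring them to their genes, were followed after knockdown of MYCN in BE(2)C cells. The group held 38 genes chosen by gene symbol, and all 38 were found among the 26364 genes that each sample lists. BE(2)C is an established human neuroblastoma line with amplified MYCN, and all samples come from this 1 line. RNA-seq compared 2 samples that received a non-targeting siRNA (Ctrl, wild type in the labels) with 2 samples that received siRNA against MYCN (MYCN KD). All samples were transfected with Lipofectamine 2000 for 6 h, and RNA was taken the next day. The labels state an siRNA concentration of 80 nM, and the methods a lower final one, reached once medium had been added. Both MYCN KD samples received the same siRNA by the methods, so effects of that reagent other than on MYCN cannot be told apart from those of the knockdown.

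Pol I works in the nucleolus and makes the precursor of the large ribosomal RNAs. Pol III makes tRNAs, 5S ribosomal RNA, U6 snRNA and other short RNAs. Both enzymes are built around a catalytic core, share several small subunits with each other and with RNA polymerase II (Pol II), and depend on dedicated factors: SL1, RRN3 and UBTF for Pol I, and TFIIIA, TFIIIB, TFIIIC and SNAPc for Pol III. MYC proteins are known as activators of both systems, which supply the RNA of the ribosome and the tRNAs of translation in growing cells.

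The knockdown was first checked in these samples. MYCN stood at 1068 and 1073 RPKM with control siRNA against 720.2 and 718 RPKM after knockdown. MYCN KD thus kept 67.2% of the Ctrl RNA level, so the comparison is one of partly lowered MYCN RNA. Its log2 fold change was -0.57 (SE 0.029, limma, Benjamini-Hochberg adjusted p = 0.00361). The paper reports a significant decrease of MYCN RNA by qPCR and of its protein by Western blot. These RNA-seq values hold no measure of protein. The paralog MYC moved the other way from MYCN, from 0.780 and 0.542 RPKM to 6.73 and 9.32 RPKM (limma, adjusted p = 0.00497). RPKM is the number of reads per kilobase of gene, scaled to the size of the library, so levels can be set side by side between genes. The reads behind each member were recovered from these values and ranged from 99 for POLR3G in MYCN KD replicate 1 to 13467 for GTF3C1 in Ctrl replicate 1, with totals of 29055819 to 34142988 reads per sample. The samples are bulk RNA, so fewer expressing cells and less RNA per cell cannot be told apart.

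The adrenergic neuroblastoma markers reported here (PHOX2A, HAND2, GATA2, GATA3, ISL1, TH and DBH) were expressed in all samples, from 23.8 RPKM for ISL1 in Ctrl replicate 1 to 865 RPKM for DBH in MYCN KD replicate 2. Defining markers of other cell types were near 0, among them PTPRC and CD3E of blood, PECAM1 of endothelium and SOX10 of Schwann cells. Other markers rose with the knockdown, namely CD68, COL1A1, DCN, S100B and VIM. CD68, found in macrophages, went from 4.26 and 3.45 RPKM to 9.40 and 11.5 RPKM, and S100B, found in Schwann cells, from 4.05 and 3.86 RPKM to 6.97 and 7.29 RPKM. The summed level of the 3 fibroblast markers was 12.1 to 14.4 RPKM with control siRNA against 16.2 to 19.0 RPKM after knockdown, and that of the 2 endothelial markers 0.233 to 0.303 against 0.413 to 0.533 RPKM. Of the 7 mesenchymal markers, VIM made up nearly all of the summed level, at 154 and 159 RPKM against 235 and 227 RPKM, while SNAI2 had 3.76 and 3.78 RPKM against 3.41 and 3.40 RPKM (adjusted p = 0.0816 from limma) and the other 5 were below 1 RPKM. Their part in the changes of the polymerase genes was not tested.

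Of the 38 members, knockdown lowered 18 and raised 0 past an adjusted p of 0.05 (limma on log2(RPKM + 1)). Among all 11411 genes tested, 22.8% were lower and 25.3% were higher by the same rule. At an unadjusted p under 0.05, 22 members were lower, against 26.9% of all genes tested, and 2 were higher (TAF1C and SNAPC2), against 30.3%. Limma voom on the recovered reads also called 0 members higher, against 25.5%. With every sample scaled to an equal total, 18 members were lower, against 18.6% of all genes tested, and 3 higher (TAF1C, BRF2 and SNAPC2), against 28.8%. The median log2 fold change was -0.29 over the members and 0.026 over all genes tested. In 27 members both MYCN KD values lay below both Ctrl values, against 35.8% of all genes tested, and in 5 members both lay above, against 40.4%. A fall of 0.5 or more on the log2 scale past the threshold was seen in 11 members, against 9.75% of all genes tested. These 11 were called in each alternative setting that tested them, whereas the 7 smaller falls (POLR1D, POLR3A, POLR3C, GTF3A, GTF3C2, GTF3C6 and SNAPC4) each missed the threshold in at least 1.

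Of the 15 members that are subunits of Pol I or Pol III, 12 were lower (80%), with a median log2 fold change of -0.62. Of the 23 initiation, termination and regulatory factors, 6 were lower (26.1%, beside 22.8% of all genes tested), with a median of -0.18. This division into enzymes and factors was made after the values had been seen, and the difference between the 2 sets was not tested. With 2 samples per condition, deviations of the samples from their condition's mean were mirror images between same-numbered samples (Pearson r of -0.9845 across all genes tested and -0.9993 across the members, a description over genes that share libraries). The deposited values had already passed a step that removes unwanted variation (RUVSeq). Its part in this pattern was not tested, and each SE and p describes the spread left after it.

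**Figure D1:**
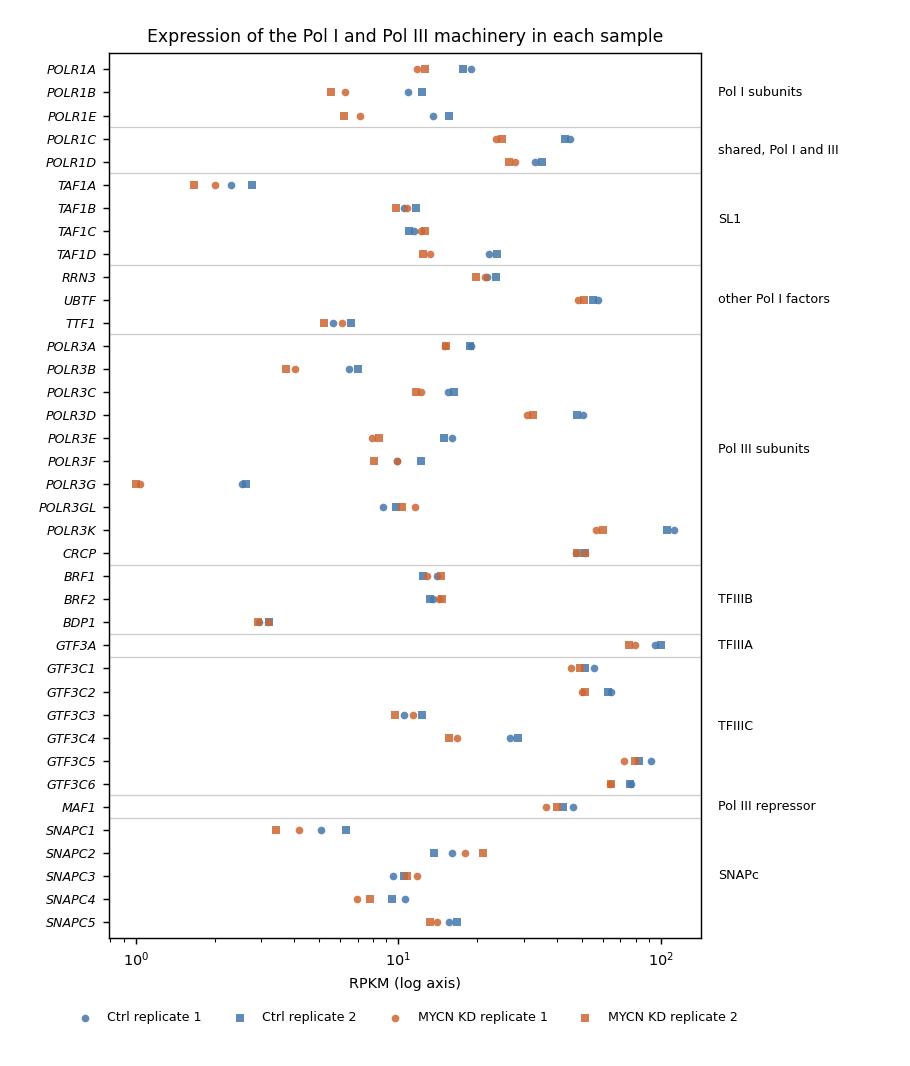
RPKM of the 38 members in each sample on a log axis, ordered by role, with circles for replicate 1, squares for replicate 2, blue for Ctrl and orange for MYCN KD. The members span from POLR3G, at 1.0035 to 2.64 RPKM, to POLR3K, at 56.6 to 112 RPKM, and the conditions stand apart for most enzyme subunits while they overlap for CRCP, BRF1 and BDP1.

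Promoters were examined because MYC family proteins bind, as dimers with MAX, to the E-box CACGTG. The RefSeq promoter table (GRCh38.p14), whose windows run from 250 bases before to 50 bases after each start site, held 31 of the 38 members. The motif, which reads the same on both strands, was present in 7.26% of all 35116 windows. By gene it was present in 13.2% of the 8489 tested genes with a window. The share was 18.8% of those that were lower in MYCN KD, 10.5% of those that were higher and 12% of those without a call. Among the members it was found in 6 of 31, and all 6 were among the 14 lower members with a window, while 0 of the 17 members without a call held it. These are counts of letters in a short window, not of bound sites, and 4 of the 6 (POLR3A, POLR3C, GTF3C2 and GTF3C6) are among the smaller falls that missed the threshold in some settings.

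The windows of POLR3E and GTF3C4, which fell most among the 6, are shown whole with the E-box in capitals, 5′ to 3′ on the strand of the gene. Each was placed on GRCh37, the build of the deposited values, by its single exact match. The E-box spans the start site in POLR3E (chr16:22308480-22308779, plus strand) and begins 35 bases before it in GTF3C4 (chr9:135545172-135545471, plus strand).
POLR3E: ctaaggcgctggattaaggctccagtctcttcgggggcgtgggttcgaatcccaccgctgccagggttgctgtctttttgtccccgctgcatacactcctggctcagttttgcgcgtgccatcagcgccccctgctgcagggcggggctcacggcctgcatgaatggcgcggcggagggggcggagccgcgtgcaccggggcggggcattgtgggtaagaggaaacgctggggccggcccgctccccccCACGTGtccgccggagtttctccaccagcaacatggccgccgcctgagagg
GTF3C4: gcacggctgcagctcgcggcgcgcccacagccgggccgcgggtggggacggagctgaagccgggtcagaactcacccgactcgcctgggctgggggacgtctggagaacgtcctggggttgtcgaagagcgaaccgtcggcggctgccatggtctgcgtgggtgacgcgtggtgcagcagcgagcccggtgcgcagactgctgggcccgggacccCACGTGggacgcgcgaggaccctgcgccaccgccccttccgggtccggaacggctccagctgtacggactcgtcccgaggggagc

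In the other 4 the E-box began 35 bases before the start site in POLR3A (chr10:79789276-79789335, minus strand), 103 in GTF3C2 (chr2:27579702-27579761, minus strand), 142 in GTF3C6 (chr6:111279740-111279799, plus strand) and 196 in POLR3C (chr1:145611077-145611136, minus strand). These are shown as 60 bases around the motif to set its flanks side by side. On the strand of the gene, the core is followed by GG in 3 of the 6 promoters, those of GTF3C4, POLR3A and GTF3C6. In POLR3E and GTF3C4 the core is preceded by CC, which reads as GG after it on the other strand.
POLR3A: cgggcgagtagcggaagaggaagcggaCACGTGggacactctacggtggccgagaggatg
GTF3C2: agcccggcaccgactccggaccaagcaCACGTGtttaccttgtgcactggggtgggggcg
GTF3C6: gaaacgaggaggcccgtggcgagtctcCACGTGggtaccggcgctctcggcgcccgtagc
POLR3C: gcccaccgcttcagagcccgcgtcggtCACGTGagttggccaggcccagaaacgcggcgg

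All 3 Pol I subunits in the group fell past the threshold, beside 22.8% of all genes tested. POLR1A, the largest catalytic subunit (chromosome 2, 86247339 to 86333278 on GRCh37), had 18.8 and 17.6 RPKM with control siRNA against 11.8 and 12.6 RPKM after knockdown. POLR1B, which forms the catalytic cleft with POLR1A (chromosome 2, 113299492 to 113337395), had 10.9 and 12.3 RPKM with control siRNA against 6.25 and 5.55 RPKM after knockdown. POLR1E, which works with the product of CD3EAP in a Pol I-specific heterodimer (chromosome 9, 37485945 to 37503694), had 13.5 and 15.6 RPKM with control siRNA against 7.14 and 6.23 RPKM after knockdown. In each the MYCN KD values were well below the Ctrl values, with no overlap. Among all genes tested, 35.8% had both MYCN KD values below both Ctrl values. MYCN KD kept 67.0% of POLR1A, 51.0% of POLR1B and 45.8% of POLR1E. The log2 fold changes were -0.54 (SE 0.059, adjusted p = 0.00866 from limma), -0.87 (SE 0.092, adjusted p = 0.00824) and -1.02 (SE 0.10, adjusted p = 0.00782), and the change of POLR1E was the largest fall among the 38 members on the log2(RPKM + 1) scale.

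POLR1C and POLR1D form a heterodimer that both enzymes contain. POLR1C (chromosome 6, 43477440 to 43530156) had 45.2 and 43.3 RPKM with control siRNA against 23.6 and 24.7 RPKM after knockdown, a log2 fold change of -0.85 (SE 0.046, adjusted p = 0.00380 from limma). Its partner POLR1D had 33.2 and 35.2 RPKM with control siRNA against 27.8 and 26.3 RPKM after knockdown, a log2 fold change of -0.33 (SE 0.055, adjusted p = 0.0193). Both fell past the threshold, beside 22.8% of all genes tested, and without overlap, beside 35.8%. Their order by level differed between conditions: POLR1C was above POLR1D in both Ctrl samples and below it in both MYCN KD samples.

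SL1, the selectivity factor that places TBP at the ribosomal RNA gene promoter, fell in 1 of its 4 members (25%). Among all genes tested, 22.8% were lower. TAF1D (chromosome 11, 93463114 to 93517557), which also carries small nucleolar RNAs in its introns, had 22.1 and 23.8 RPKM with control siRNA against 13.2 and 12.4 RPKM after knockdown, a log2 fold change of -0.80 (SE 0.062, adjusted p = 0.00528 from limma). TAF1A had 2.30 and 2.78 RPKM with control siRNA against 2.01 and 1.67 RPKM after knockdown, and the difference of -0.32 missed the threshold (adjusted p = 0.0830). TAF1B (-0.09, adjusted p = 0.386) and TAF1C (0.14, adjusted p = 0.0832) did not pass it either. TAF1D was the most abundant of the 4 in Ctrl, while in MYCN KD it stood at 12.8 ± 0.605 RPKM (SD, n = 2) beside 12.4 ± 0.333 RPKM (SD, n = 2) for TAF1C.

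None of the other 3 Pol I factors passed the threshold. UBTF, which binds along the ribosomal RNA genes and keeps them in an active state, had 57.5 and 54.9 RPKM with control siRNA against 48.5 and 50.7 RPKM after knockdown. Its values did not overlap, and its difference of -0.18 (SE 0.047) fell just short of the threshold (adjusted p = 0.0508 from limma). RRN3, which links Pol I to SL1 and responds to growth signals, had 21.7 and 23.6 RPKM with control siRNA against 21.4 and 19.8 RPKM after knockdown (-0.13, adjusted p = 0.206). Pseudogene copies of RRN3 are listed apart from it, and how reads were divided among them was not tested. TTF1, which binds the terminators of the ribosomal RNA genes, overlapped between conditions at 5.62 and 6.61 RPKM with control siRNA against 6.10 and 5.23 RPKM after knockdown (-0.09, adjusted p = 0.524).

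Of the 10 Pol III subunits in the group, 7 were lower (70%, beside 22.8% of all genes tested). Of these, 5 fell by 0.5 or more, beside 9.75% of all genes tested. POLR3K, a small subunit needed for cleavage and termination (chromosome 16, 96407 to 103608), had 112 and 105 RPKM with control siRNA against 56.6 and 60.1 RPKM after knockdown. POLR3E, a peripheral subunit that pairs with POLR3D (chromosome 16, 22308696 to 22346422), had 15.9 and 14.9 RPKM with control siRNA against 7.92 and 8.46 RPKM after knockdown. POLR3D had 50.5 and 47.8 RPKM with control siRNA against 30.8 and 32.5 RPKM after knockdown. All 3 were far apart between conditions relative to the gap between replicates. Their log2 fold changes were -0.88 (SE 0.054, adjusted p = 0.00422 from limma), -0.84 (SE 0.059, adjusted p = 0.00472) and -0.62 (SE 0.052, adjusted p = 0.00594).

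The catalytic pair of Pol III fell unequally. POLR3B, the second largest subunit (chromosome 12, 106751526 to 106903976), had 6.51 and 7.01 RPKM with control siRNA against 4.02 and 3.75 RPKM after knockdown, a log2 fold change of -0.67 (SE 0.060, adjusted p = 0.00652 from limma). POLR3A, the largest subunit (chromosome 10, 79712906 to 79789280), had 18.8 RPKM in both Ctrl samples and 15.1 RPKM in both MYCN KD samples, a log2 fold change of -0.30 (SE 0.035, adjusted p = 0.00969). POLR3A and the Pol I homolog POLR1A stood close in Ctrl, with POLR1A at 1.001 and 0.938 of POLR3A. After knockdown that ratio was 0.783 and 0.834, below both Ctrl values. For the second largest subunits, POLR1B was at 1.67 and 1.76 of POLR3B with control siRNA and at 1.55 and 1.48 after knockdown. An exact permutation test of such a ratio, two-sided, cannot give a p below 0.333 from 2 samples per condition.

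POLR3C, POLR3F and either POLR3G or POLR3GL form the Pol III subcomplex that meets TFIIIB during initiation. POLR3C fell from 15.4 and 16.2 RPKM to 12.2 and 11.6 RPKM, a log2 fold change of -0.38 (SE 0.050, adjusted p = 0.0118 from limma). POLR3F had 9.92 and 12.2 RPKM with control siRNA against 9.86 and 8.07 RPKM after knockdown, a wide spread within each condition, and its difference of -0.28 (SE 0.15) missed the threshold (adjusted p = 0.207). CRCP, a small stalk subunit, stood at 47.5 and 51.2 RPKM with control siRNA against 51.4 and 47.8 RPKM after knockdown, with overlapping values and a difference of 0.0072 (SE 0.064, adjusted p = 0.934).

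Of the interchangeable subunits POLR3G and POLR3GL, only POLR3G changed by the test. POLR3G is known from stem cells and tumours, while POLR3GL is the form of most differentiated cells. POLR3G (chromosome 5, 89767565 to 89810374) had 2.55 and 2.64 RPKM with control siRNA against 1.04 and 1.0035 RPKM after knockdown, from 277 to 286 reads in Ctrl and 99 to 102 reads in MYCN KD. It kept 39.3% of its Ctrl level, the lowest share of any member. The log2 fold change was -0.83 with the pseudocount of 1 (SE 0.039, adjusted p = 0.00359 from limma) and -1.34 by limma voom on the recovered reads (adjusted p = 0.00378), because the pseudocount understates changes at low RPKM. POLR3GL had 8.72 and 9.82 RPKM with control siRNA against 11.6 and 10.3 RPKM after knockdown. Both MYCN KD values were above both Ctrl values, as in 40.4% of all genes tested. The difference of 0.22 (SE 0.089) missed the threshold (adjusted p = 0.129 from limma). POLR3GL was the more abundant form in all samples, and the ratio of POLR3G to POLR3GL went from 0.292 and 0.268 in Ctrl to 0.0898 and 0.0972 in MYCN KD.

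**Figure D2:**
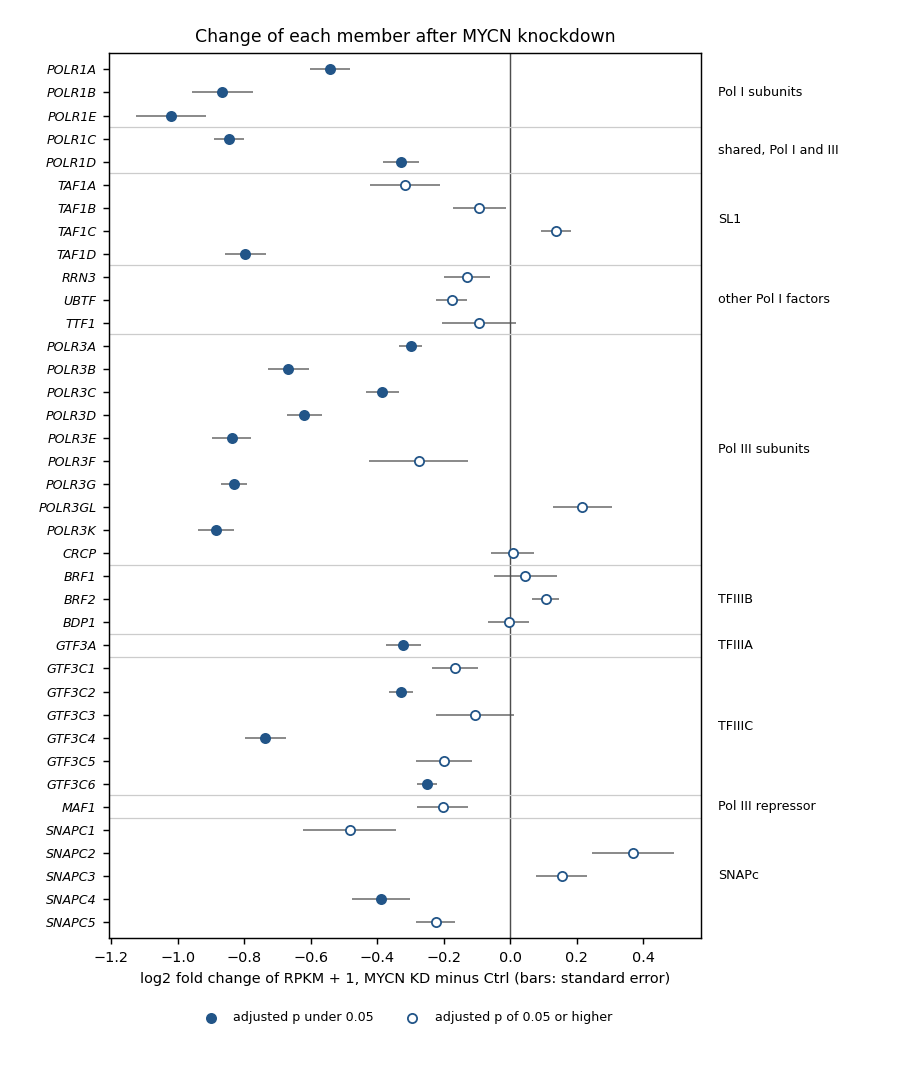
Log2 fold change of RPKM + 1 (MYCN KD minus Ctrl) for each member, ordered by role, with horizontal bars for the limma standard error and filled circles for an adjusted p under 0.05. All 18 filled circles lie left of 0, from -1.02 for POLR1E to -0.25 for GTF3C6, and the TFIIIB members sit near 0.

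TFIIIB, the factor that recruits Pol III to every promoter together with TBP, did not change by the test in any of its 3 members. BRF1, which serves tRNA and 5S genes, had 14.1 and 12.4 RPKM with control siRNA against 12.9 and 14.5 RPKM after knockdown (0.04, SE 0.095, adjusted p = 0.720 from limma). BRF2, which serves U6 and similar genes, had 13.5 and 13.2 RPKM with control siRNA against 14.2 and 14.6 RPKM after knockdown (0.11, SE 0.041, adjusted p = 0.112). BRF1 values overlapped between conditions, whereas both MYCN KD values of BRF2 were slightly above Ctrl. The ratio of BRF2 to BRF1 was 0.960 and 1.06 with control siRNA against 1.11 and 1.01 after knockdown, with overlap. BDP1, the third component, was the least abundant at 2.94 and 3.21 RPKM with control siRNA against 3.19 and 2.93 RPKM after knockdown (-0.0048, SE 0.063, adjusted p = 0.953).

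**Figure D3:**
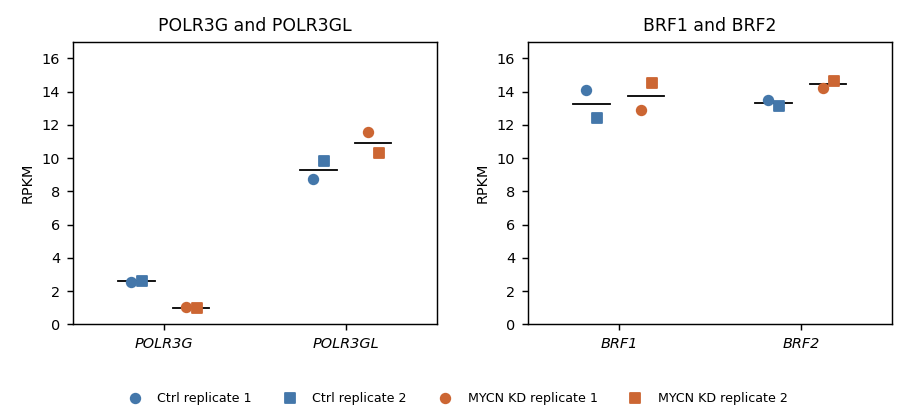
RPKM of the paralog pairs POLR3G and POLR3GL (left) and BRF1 and BRF2 (right), with 1 point per sample, blue for Ctrl, orange for MYCN KD and a black line for the mean of 2 samples. POLR3G drops from a mean of 2.59 to 1.02 RPKM while POLR3GL stands at 9.27 and 10.9 RPKM, and BRF1 and BRF2 all lie between 12.4 and 14.6 RPKM.

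TFIIIA and TFIIIC recognise the internal promoters of Pol III genes. GTF3A, which encodes TFIIIA and directs 5S transcription, fell from 94.4 and 100.2 RPKM to 79.9 and 75.5 RPKM, a log2 fold change of -0.32 (SE 0.053, adjusted p = 0.0192 from limma). Of the 6 TFIIIC subunits, all had a negative log2 fold change and 3 passed the threshold (50%, beside 22.8% of all genes tested). GTF3C4 (chromosome 9, 135545422 to 135570340), a subunit with reported histone acetyltransferase activity, had 26.6 and 28.6 RPKM with control siRNA against 16.7 and 15.6 RPKM after knockdown (-0.74, SE 0.061, adjusted p = 0.00583). GTF3C2 fell to 79.3% of Ctrl (-0.33, adjusted p = 0.00843) and GTF3C6 to 83.9% (-0.25, adjusted p = 0.0107). The subunits that contact DNA did not pass: GTF3C1, which binds the B box, had -0.17 (adjusted p = 0.128), and GTF3C5, which binds the A box region, had -0.20 (adjusted p = 0.138). GTF3C3 overlapped between conditions (-0.11, adjusted p = 0.499). GTF3C4 and GTF3C2, with GTF3C6, are among the 6 members whose promoter window holds the E-box.

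MAF1, the repressor that holds Pol III in check under stress, had 46.4 and 42.2 RPKM with control siRNA against 36.6 and 40.1 RPKM after knockdown. Its values did not overlap, but the difference of -0.20 (SE 0.076) missed the threshold (adjusted p = 0.108 from limma).

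SNAPc, which binds the promoters of snRNA genes of both Pol II and Pol III, was split in direction by sign. Past the threshold, 1 of its 5 members was lower (20%), beside 22.8% of all genes tested. SNAPC4, its large DNA-binding subunit, fell from 10.6 and 9.44 RPKM to 6.99 and 7.82 RPKM, a log2 fold change of -0.39 (SE 0.087, adjusted p = 0.0355 from limma). SNAPC1 had 5.09 and 6.32 RPKM with control siRNA against 4.19 and 3.41 RPKM after knockdown. Its difference of -0.48 did not pass (adjusted p = 0.0618 from limma). With the replicate number as a block in limma the reverse held: SNAPC1 passed (adjusted p = 0.0195) and SNAPC4 did not (adjusted p = 0.0625). SNAPC2 had the highest positive value among the 38 members, with 16.0 and 13.6 RPKM under control siRNA against 17.9 and 21.0 RPKM after knockdown, a difference of 0.37 (SE 0.12, adjusted p = 0.0839). SNAPC3 was above Ctrl in both MYCN KD samples (0.15, adjusted p = 0.177) and SNAPC5 below (-0.22, adjusted p = 0.0511). The conditions thus did not overlap in any of the 5 SNAPc genes. Among all genes tested, both MYCN KD values lay below both Ctrl values in 35.8% and above in 40.4%.

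Subunits outside the 38 genes were examined from a list of 10, the remaining Pol I and Pol III subunits, those shared with Pol II, and TBP. Of the 9 tested, 6 were lower (66.7%) and 0 were higher, beside 22.8% and 25.3% of all genes tested. Their median log2 fold change was -0.42. CD3EAP, the partner of POLR1E, had the largest fall, from 6.55 and 6.40 RPKM to 2.30 and 2.36 RPKM (-1.17, SE 0.041, adjusted p = 0.00359 from limma). POLR2E (-0.93, adjusted p = 0.00614) and POLR2H (-0.74, adjusted p = 0.00359), which all 3 polymerases contain, followed, and TBP fell to 87.7% of Ctrl (-0.18, adjusted p = 0.0311). The shared subunits POLR2K (-0.06, adjusted p = 0.405) and POLR2L (0.04, adjusted p = 0.745) overlapped between conditions. ZNRD1, the Pol I subunit that aids RNA cleavage, was listed at 0 or near 0 in each sample and could not be tested.

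Genes of the Pol II system gave a comparison. Subunits that Pol II shares with Pol I and Pol III were counted in the list above and left out here. Of those, POLR2E (-0.93), POLR2H (-0.74) and POLR2F (-0.42) were lower past the threshold, while POLR2K and POLR2L were not. The share and the size of the falls below therefore hold for a list without them. Of 20 tested Pol II subunits and initiation factors, 6 were lower and 0 were higher, 30.0% of the list beside 22.8% of all genes tested, with a median log2 fold change of -0.13 and no fall as large as 0.5. The largest were those of GTF2H1 (-0.49, adjusted p = 0.0272 from limma), POLR2D (-0.47, adjusted p = 0.0276) and GTF2F2 (-0.44, adjusted p = 0.00639). POLR2A, the catalytic subunit of Pol II, had 53.7 and 48.2 RPKM with control siRNA against 46.9 and 52.1 RPKM after knockdown (-0.04, adjusted p = 0.725), where POLR1A and POLR3A fell. Whether the lists differ from each other was not tested.

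Regulators of ribosomal RNA transcription and the early processome proteins that assist it were lower in 13 of 20 tested genes (65.0%) and higher in 0. Their median log2 fold change was -0.54, and 22.8% of all genes tested were lower and 25.3% higher. NOLC1 (-1.31), NCL (-1.10) and NPM1 (-1.05), all abundant nucleolar proteins, fell most (adjusted p from 0.00359 to 0.00422 from limma). BAZ2A, a subunit of a complex that silences ribosomal RNA genes (0.11, adjusted p = 0.0700), and SIRT7, an activator of Pol I (0.08, adjusted p = 0.308), did not pass. Among 8 genes that assist Pol III or handle its products, 3 were lower (37.5%) and 0 were higher, beside 22.8% and 25.3% of all genes tested. The 3 were SSB, which binds new Pol III transcripts (-0.73, adjusted p = 0.00414), ELAC2, which trims tRNA ends (-0.58, adjusted p = 0.00422), and LARP7, which binds 7SK RNA (-0.50, adjusted p = 0.0062).

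**Figure D4:**
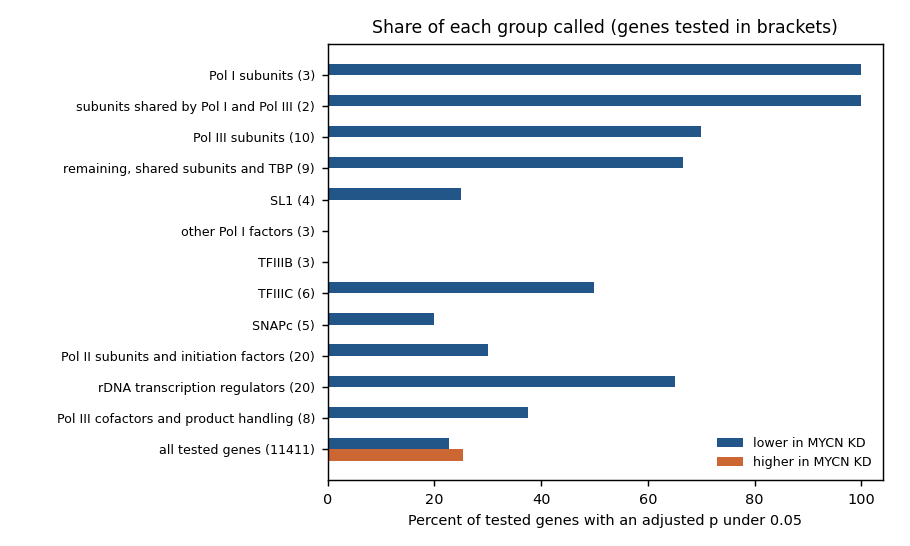
Percent of the tested genes in each group with an adjusted p under 0.05, blue for lower and orange for higher in MYCN KD, with the number of tested genes in brackets. The enzyme subunit groups, with the list of remaining and shared subunits, reach 66.7% to 100% lower, TFIIIB and the other Pol I factors 0%, and all tested genes 22.8% lower and 25.3% higher.

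Few reads fell on most of the RNAs that are made by Pol I or Pol III or from SNAPc promoters. RNA45S5, the listed ribosomal RNA precursor locus, had 43.8 and 35.7 RPKM with control siRNA against 33.8 and 41.3 RPKM after knockdown, with overlapping values (-0.08, SE 0.16, adjusted p = 0.698 from limma). This locus is one of many near-identical copies, so its level is uncertain although 13129 to 19971 reads fell on it. RPPH1, the RNA of RNase P, had 91 and 48 reads in Ctrl and 45 and 84 in MYCN KD. RMRP had 27 and 18 reads in Ctrl and 13 and 19 in MYCN KD, and the U6 gene RNU6-2 had 60 and 52 reads in Ctrl and 49 and 56 in MYCN KD. Reads of each thus overlapped between conditions. These levels are not a measure of Pol I or Pol III output, which was not tested. Of 42 listed RNAs of these classes, which include snRNAs made by Pol II, 7 passed the expression filter. Of these 7, 0 were lower and 1 was higher, beside 22.8% and 25.3% of all genes tested. The 1 was the minor spliceosome RNA RNU11, a Pol II product with a SNAPc promoter, which rested on 5 to 11 reads per sample.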

How the data were processed

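The 4 samples were grouped by their labels into 2 Ctrl and 2 MYCN KD. By the study's methods and the submitters' processing notes, HISAT2 2.1.0 aligned the reads (hg19), featureCounts assigned them to RefSeq genes, and the authors passed the counts through DESeq2 and RUVSeq, the latter to take out unwanted variation. The deposited values are RPKM calculated by the authors from those normalized counts, so depth before that step is unknown. Whether the libraries keep strand is not given in the sources used here.

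Totals per sample were the values at which microRNA genes of known length gave whole reads (94.8% to 96.4% of them within 0.001 of a whole number). Reads per gene were then taken at the shortest gene length that made all 4 values whole within the rounding of the file (at most 0.2 reads), which was found for all 19908 genes above 0. They had been adjusted before deposit.

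Log2(RPKM + 1) was fitted with limma 3.58.1 in R 4.3.3 (trended eBayes). Tested were 11411 genes averaging 1 RPKM or more, with p-values adjusted over all of them (Benjamini-Hochberg) and a threshold of 0.05. All 38 members passed the filter. The members and lists were chosen with earlier results of these data known. Per-sample values were given for members past the threshold with a change of at least 0.5, for the paralog pairs and for RRN3, UBTF, TTF1 and MAF1 by rule, and for others added after seeing their values. From the lists, up to 3 of the largest falls and rises were named, others after their values were seen. The study calls its samples biological replicates, but nothing in the labels says that they are separate cultures, so p-values measure the spread between these samples. The fit was also run on simulated counts drawn independently for each sample. Such counts lack the mirrored deviations of the real samples, so that run says nothing about how these deviations affect the p-values. Gene positions came from GENCODE release 44 lifted to GRCh37, promoters from RefSeq. Python 3.11.15 was used. Some marker genes are not reported here.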

Additional observations from a re-analysis of the deposited data

How the results depend on the processing

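The log2 fold change of MYCN kept its direction and stayed past the threshold under each alternative, at its weakest -0.38 with quantile normalization. All 11 members that fell by 0.5 or more were also lower in each of the 12 alternatives that tested them, including each sample left out in turn, where the lone sample of a condition is assumed to vary like the other condition. POLR3G was not tested with a mean RPKM of at least 5. None of the 7 smaller falls (POLR1D, POLR3A, POLR3C, GTF3A, GTF3C2, GTF3C6 and SNAPC4) held in all of them. The count of lower members was 18 with all samples, beside 22.8% of all genes tested. When 1 sample was omitted, the median log2 fold change ran from -0.305 to -0.269 over the members. Over all genes tested it ran from 0.00532 to 0.0462. A replicate block on the replicate number gave 12 lower and 0 higher (16.2% and 18.2% of all genes), without the 7 smaller falls and with SNAPC1 (adjusted p = 0.0195). Same-numbered samples deviated in opposite directions, but these values had passed RUVSeq, so whether the numbers pair the samples cannot be told. With a crossed replicate block, added after seeing the data, 30 members were lower and 7 higher, as 46.1% and 51.8% of all genes were, so this count says nothing about the members. After rescaling all samples to 1 total, 18 were lower and 3 higher (TAF1C, BRF2 and SNAPC2), beside 18.6% and 28.8% of all genes. The rescaling moved the median of all genes from 0.026 to 0.0783. The log2 fold change of SNAPC2 ran from 0.258 to 0.480 when 1 sample was omitted. Quantile normalization left GTF3A short of the threshold (adjusted p = 0.0550) and added TAF1A, SNAPC1 and SNAPC5. Members near 0 changed sign: BDP1 to 0.0412 with the rescaling and between -0.0526 and 0.0429 when 1 sample was omitted, TTF1 from -0.194 to 0.00661, CRCP from -0.0465 to 0.0610, BRF1 from -0.0386 to 0.128 and GTF3C3 from -0.213 to 0.00155. The causes were not tested. Reads limit POLR3G and TAF1A most, at 99 and 118 reads in their lowest sample.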
